A study of Mus musculus with 7 samples.

Results

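The 10 growth arrest and early growth genes are those for p21 (Cdkn1a), Btg2, the Gadd45 proteins (Gadd45a, Gadd45b and Gadd45g), cyclins G1, G2 and D1 (Ccng1, Ccng2 and Ccnd1), Myc and Mdm2. They were taken by gene symbol from a table of 54532 genes, and each symbol stood on 1 row. All 10 passed the filter on low values and were tested. The list was drawn up on what the genes are known to do, with earlier results of these data known. The question was whether their transcripts differed between livers of mice on caloric restriction (CR) and livers of mice fed ad libitum (AL).

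The livers were those of 4 CR and 3 AL mice, all C57BL/6 males aged 30 weeks, and each mouse gave 1 library. CR had begun at 12 weeks of age and was stepped up to a 30% reduction of intake, so that livers were taken after 18 weeks. CR mice lived singly and were given their food once a day in the dark phase, whereas AL mice shared cages and ate freely. Housing, feeding time and diet therefore cannot be told apart. All livers were collected in the afternoon, hours after the daily meal of the CR mice was given. RNA was sequenced, and levels are given in FPKM, read counts divided by gene length and sequencing depth.

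Growth arrest and early growth genes sit at the entry to the cell cycle. Cyclin D1, induced by growth signals, activates the kinases that start the cycle, and Myc is a transcription factor that drives growth and ribosome production. p21 inhibits cyclin-dependent kinases, and Cdkn1a, Mdm2, Ccng1, Btg2 and Gadd45a are textbook targets of the tumour suppressor p53, which Mdm2 in turn marks for degradation. Ccng2, a cyclin of quiescent cells, is a known target of FoxO factors. The Gadd45 proteins bind stress kinases and cell cycle proteins, and Btg2 is an antiproliferative protein. Hepatocytes of an adult liver rarely divide, and several of these genes respond within hours to feeding, hormones or stress.

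The upstream sequences of 4 of the genes are given first, those of the pair that passed the test of diet, Btg2 and Gadd45b, and those of the pair whose levels varied most within a diet, Gadd45g and Cdkn1a. Each is the 250 bases before the RefSeq start on GRCm38.p6, with matches to the searched motifs in capitals. Cdkn1a has 2 RefSeq starts, and the start nearest the 5' end of the gene was used. The sequence before the other Cdkn1a start was not searched. RefSeq upstream sequences were matched for 8 of the 10 genes, the others being Ccnd1 and Myc.
Btg2 (chr1:134079156-134079405, minus strand): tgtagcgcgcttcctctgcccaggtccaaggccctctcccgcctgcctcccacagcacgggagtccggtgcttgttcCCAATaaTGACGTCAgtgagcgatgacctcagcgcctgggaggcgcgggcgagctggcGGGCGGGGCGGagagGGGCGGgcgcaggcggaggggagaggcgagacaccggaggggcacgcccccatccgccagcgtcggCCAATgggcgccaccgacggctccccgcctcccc
Gadd45b (chr10:80929841-80930090, plus strand): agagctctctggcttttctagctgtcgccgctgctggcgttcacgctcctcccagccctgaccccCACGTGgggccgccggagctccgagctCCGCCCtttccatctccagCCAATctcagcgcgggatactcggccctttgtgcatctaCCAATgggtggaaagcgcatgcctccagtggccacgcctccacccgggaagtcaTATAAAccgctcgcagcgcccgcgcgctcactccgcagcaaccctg
Gadd45g (chr13:51846425-51846674, plus strand): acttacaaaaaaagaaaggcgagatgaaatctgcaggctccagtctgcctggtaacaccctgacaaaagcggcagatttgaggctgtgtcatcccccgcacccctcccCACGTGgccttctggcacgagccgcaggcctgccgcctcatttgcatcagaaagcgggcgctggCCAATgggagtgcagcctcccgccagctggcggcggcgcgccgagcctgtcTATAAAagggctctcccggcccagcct
Cdkn1a (chr17:29090729-29090978, plus strand): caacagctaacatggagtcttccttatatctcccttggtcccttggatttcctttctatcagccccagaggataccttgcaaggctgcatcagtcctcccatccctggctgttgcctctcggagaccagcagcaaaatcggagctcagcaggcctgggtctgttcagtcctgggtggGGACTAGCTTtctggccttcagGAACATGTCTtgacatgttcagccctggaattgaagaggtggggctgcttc

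The motifs were chosen after the values were seen and searched on both strands. They were the cyclic AMP response element TGACGTCA, the E-box CACGTG, the CCAAT box CCAAT, the GC box GGGCGG, the TATA box TATAAA, a FoxO motif GTAAACA, a STAT motif TTCNNNGAA, the p53 decamer and the CArG box of serum response factor. The Btg2 sequence held TGACGTCA at positions -166 to -159, a motif of 1.56% of 32536 distinct upstream sequences of this length. It also held 3 GC boxes, of which the first pair share a base, and 2 CCAAT boxes, motifs of 33.0% and 33.8% of the sequences. The sequences of Gadd45b and Gadd45g, which code for related proteins, both held an E-box (6.04% of sequences), a TATA box (12.3%) and at least 1 CCAAT box. The Cdkn1a sequence held 2 matches to the p53 decamer, at positions -73 to -64 and -51 to -42, a motif of 7.12% of sequences. In the other 4 sequences, 1 p53 decamer each was matched upstream of Ccng1, Gadd45a and Mdm2, and GTAAACA (3.17% of sequences) upstream of Mdm2. The STAT motif (7.04%) and the CArG box (1.48%) had no match in the 8 windows. A match is a description of the letters and not a binding site.

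The labelled tissue was checked first. Alb, albumin and the main product of hepatocytes, was between 36441 and 42291 FPKM in CR livers and between 13855 and 24725 FPKM in AL livers. The 7 hepatocyte markers found did not move together. Alb rose, Serpina1c fell to 216 ± 49.7 FPKM in CR livers, against 790 ± 37.4 FPKM in AL livers, Fgb fell to 1095 ± 156 FPKM in CR livers, against 2318 ± 97.1 FPKM in AL livers, and 4 did not pass, with a median log2 fold change of -0.025. Reads counted in genes ranged from 16486665 to 19900806 in CR libraries and from 15641740 to 16101631 in AL libraries, and 1 read on a 2 kb gene was worth 0.025 to 0.032 FPKM. Mitochondrial genes took 5.62% to 8.09% of the reads in CR livers and 3.92% to 4.85% in AL livers. Markers of red blood cells summed to between 251 and 397 FPKM in CR livers and between 152 and 198 FPKM in AL livers, with 5 of 5 detected. The 4 globin genes on that list rose, whereas Alas2, the first enzyme of haem synthesis in red cells, fell to 9.24 ± 1.89 FPKM in CR livers, against 47.5 ± 4.14 FPKM in AL livers (limma adjusted p = 0.000181). Adipocyte markers, a list that includes Car3, which hepatocytes also express, summed to between 74.3 and 343 FPKM in CR livers and between 243 and 1082 FPKM in AL livers. Car3 made up most of these sums. Cfd, the only marker on the list to pass, averaged 0.083 ± 0.166 FPKM in CR livers and 5.18 ± 1.55 FPKM in AL livers (limma adjusted p = 0.00116). Cidec averaged 2.16 ± 1.22 FPKM in CR livers and 9.16 ± 5.41 FPKM in AL livers (limma adjusted p = 0.0512). Adipoq, Plin1 and Lep were too low to be tested, and Lep, which defines adipocytes, was at 0 in every liver. The part of these cells in the results below was not tested. In bulk tissue, fewer cells of a type and less RNA per cell cannot be told apart.

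Of the 10 genes, Gadd45b rose in CR livers, Btg2 fell, and 8 did not pass the test. Over all 12699 genes tested, 21.5% passed in either direction, 11.3% rising and 10.2% falling, so that the count of 2 among 10 was close to the background. Each gene was tested with limma (two-sided) on log2(FPKM + 0.1), and p-values were adjusted by Benjamini-Hochberg over the 12699 genes, with a threshold of 0.05. Fold changes are CR minus AL on that log2 scale, on which changes at low levels come out too small. The median log2 fold change was -0.21 over the 10 genes and -0.002 over all genes tested. An unadjusted limma p under 0.05 was reached by 5 of the 10 genes and by 35.8% of all genes tested. Values of CR and AL livers did not overlap for 3 of the 10 genes, Gadd45b, Btg2 and Myc, against 34.4% of all genes tested.

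**Figure D1:**
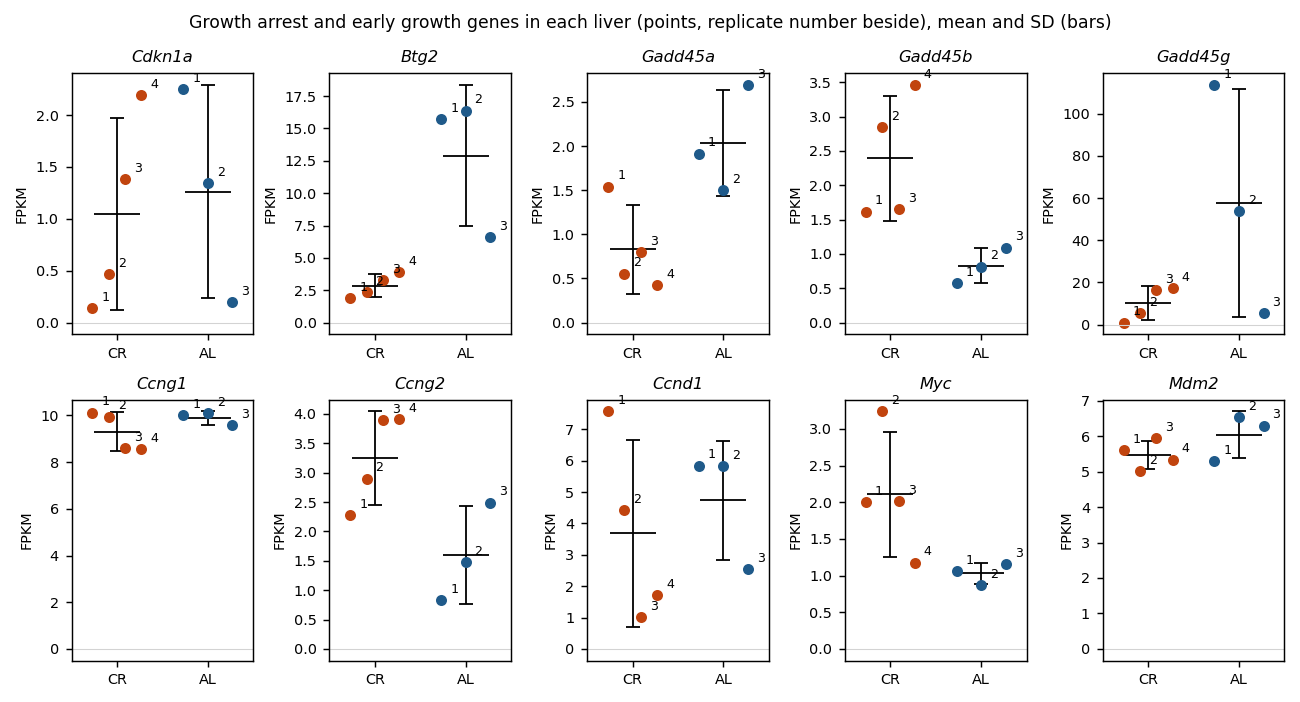
FPKM of each of the 10 genes (vertical axes, each with its own scale) in 4 CR livers (orange) and 3 AL livers (blue), with the replicate number beside each point and bars for the mean and SD. CR and AL livers do not overlap for Btg2, Gadd45b and Myc, and livers of the same diet lie far apart for Gadd45g, Cdkn1a and Ccnd1.

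Btg2 (chr1:134075170-134079120, GRCm38, minus strand), an antiproliferative gene of the Btg/Tob family, fell. It was 1.91, 2.34, 3.26 and 3.92 FPKM in CR replicates 1 to 4, against 15.7, 16.4 and 6.60 FPKM in AL replicates 1 to 3. Every CR liver was below every AL liver, and AL replicate 3 lay nearest to the CR livers. The means were 2.86 ± 0.903 FPKM (SD, n = 4) in CR livers and 12.9 ± 5.46 FPKM (SD, n = 3) in AL livers. The log2 fold change was -2.08 (standard error, SE, 0.36, limma adjusted p = 0.00771). It passed in 17 of 18 alternative settings and was -1.71 without CR replicates 1 and 2 (limma adjusted p = 0.0585).

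Btg2, which fell, and Cdkn1a, which did not pass, belong to the families of the next list but were left off it. On this list of 13 further inhibitors of cyclin-dependent kinases, retinoblastoma family proteins and Btg/Tob genes, 10 could be tested, of which 3 rose, none fell and 7 did not pass, with a median of 0.27. That is 30.0% of those tested, against 21.5% of all genes in either direction and 11.3% rising, and the count was 1 without CR replicates 1 and 2 and 0 without CR replicates 3 and 4. At an unadjusted limma p under 0.05, 4 were higher and 0 lower, and limma-voom on recovered reads called 3 and 0. Cdkn1c, which codes for the kinase inhibitor p57, was 3.24, 4.02, 4.30 and 3.55 FPKM in CR replicates 1 to 4, against 0.392, 0.318 and 0.126 FPKM in AL replicates 1 to 3 (log2 fold change 3.42, SE 0.28, limma adjusted p = 0.000263). The AL values rest on 13, 11 and 4 reads. All lie below the filter of 0.5 FPKM, which Cdkn1c passed only through its CR livers. Btg1, the nearest relative of Btg2, averaged 12.6 ± 2.23 FPKM in CR livers and 5.52 ± 1.84 FPKM in AL livers (log2 fold change 1.22, limma adjusted p = 0.0138). Btg1 and Btg2, relatives in the same family, thus passed the test in opposite directions. Cdkn2c, which codes for the inhibitor p18, averaged 3.67 ± 0.741 FPKM in CR livers and 1.51 ± 0.693 FPKM in AL livers (limma adjusted p = 0.0202), but the adjusted p was 0.0566 and 0.0724 without AL replicates 1 and 2, and 0.0533 and 0.0502 without CR replicates 2 and 3. Tob1, the most abundant on the list, averaged 56.2 ± 17.1 FPKM in CR livers and 52.7 ± 14.8 FPKM in AL livers (log2 fold change 0.09, limma adjusted p = 0.854). Its sign turned in 5 of 18 alternative settings, for example to -0.17 without AL replicate 1. The count was 2 without AL replicate 1 or 2 or CR replicate 2 or 3.

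Cdkn1a (chr17:29090976-29100727, plus strand), the gene of p21, differed little between the diets on average and strongly between livers of the same diet. It was 0.142, 0.464, 1.38 and 2.19 FPKM in CR replicates 1 to 4, against 2.25, 1.34 and 0.199 FPKM in AL replicates 1 to 3. The highest and the lowest liver differed 15.5-fold within CR and 11.3-fold within AL, and the ranges of CR and AL overlapped almost fully. The lowest value, in CR replicate 1, rests on 10 reads and has a 95% Poisson interval of 0.068 to 0.261 FPKM, which covers counting error only. The log2 fold change was -0.28, with a 95% interval from -2.43 to 1.86 (limma adjusted p = 0.852). It turned to 0.33 without AL replicate 1 and to 0.31 without CR replicate 1.

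The Gadd45 genes code for small stress-induced proteins that bind MAP3K4, p21 and PCNA. Gadd45b (chr10:80930073-80932204, plus strand) rose. It was 1.62, 2.85, 1.65 and 3.46 FPKM in CR replicates 1 to 4, against 0.580, 0.815 and 1.09 FPKM in AL replicates 1 to 3. Every CR liver was above every AL liver, although the levels were low, with as few as 15 reads in AL replicate 1. The means were 2.39 ± 0.911 FPKM in CR livers and 0.828 ± 0.255 FPKM in AL livers (log2 fold change 1.39, SE 0.32, limma adjusted p = 0.0215). The adjusted p was 0.0757 without AL replicate 1, 0.0699 without AL replicate 2 and 0.0562 without CR replicate 2, so that the call rests on each of these livers. It was 0.0719 without CR replicates 1 and 2 and 0.0609 without CR replicates 3 and 4.

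Gadd45a (chr6:67035096-67037457, minus strand) was 1.54, 0.554, 0.794 and 0.425 FPKM in CR replicates 1 to 4, against 1.91, 1.50 and 2.69 FPKM in AL replicates 1 to 3. CR replicate 1 lay just above the lowest AL liver, and the other CR livers lay below all AL livers. The log2 fold change was -1.30, with a 95% interval from -2.22 to -0.39, and it did not pass (limma adjusted p = 0.0521). Without CR replicate 1 it was -1.62 (limma adjusted p = 0.0164). Gadd45a overlaps the noncoding gene E230016M11Rik on the opposite strand, at a mean of 0.368 FPKM, and the sources used here do not say whether reads were counted by strand.

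Gadd45g (chr13:51846678-51848468, plus strand) was the most abundant of the 10 genes in either diet and the most variable. It was 0.987, 5.52, 16.5 and 17.2 FPKM in CR replicates 1 to 4, against 114, 54.0 and 5.36 FPKM in AL replicates 1 to 3. AL replicates 1 and 2 were above every CR liver, but AL replicate 3 was below 3 of the 4 CR livers. The highest liver was 17.5-fold above the lowest within CR and 21.2-fold within AL. These values rest on at least 23 reads. The log2 fold change was -2.32, with a 95% interval from -5.21 to 0.58 (limma adjusted p = 0.227), and without AL replicate 3 it was -3.60 (limma adjusted p = 0.0627).

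The signs of the 3 paralogues differed, and the difference between them was tested on log2 ratios within each liver. The ratio of Gadd45a to Gadd45b averaged -1.49 ± 1.21 (log2, SD, n = 4) in CR livers and 1.20 ± 0.38 (SD, n = 3) in AL livers. The highest CR value, -0.06 in replicate 1, was below the lowest AL value, 0.81 in replicate 2. The difference of -2.69 had p = 0.0571 in a two-sided exact permutation test over 35 splits of the livers (adjusted p = 0.171 over 4 pairs), where the smallest possible p is 0.0286. The ratio of Gadd45b to Gadd45g averaged -1.45 ± 1.69 in CR livers and -5.16 ± 2.67 in AL livers, a difference of 3.71 (exact permutation p = 0.143, adjusted p = 0.190). The ratio of Gadd45a to Gadd45g averaged -2.94 ± 2.49 in CR livers and -3.95 ± 2.61 in AL livers (exact permutation p = 0.600, adjusted p = 0.600). None of these differences passed the adjusted threshold. With 4 pairs adjusted together, a single pair could not pass even at the smallest possible p, so the test could not decide the question. On a list of 11 kinases and phosphatases of p38 and JNK signalling, the pathway into which Gadd45 proteins feed, 3 rose, none fell and 8 did not pass, with a median of 0.04. Passing genes, all of which rose, were 27.3% of those tested, against 21.5% of all genes in either direction and 11.3% rising. At an unadjusted limma p under 0.05, 2 were lower, and limma-voom called 0 lower. Map2k6, an activator of p38, was 3.48, 3.35, 2.85 and 2.87 FPKM in CR replicates 1 to 4, against 0.303, 0.598 and 1.77 FPKM in AL replicates 1 to 3 (log2 fold change 2.0, limma adjusted p = 0.0201). The JNK genes Mapk9 and Mapk8 differed by 0.55 and 0.59 on the log2 scale (limma adjusted p 0.0187 and 0.0481). Mapk14, p38 alpha and the most abundant on the list, averaged 25.1 ± 1.86 FPKM in CR livers and 27.2 ± 2.06 FPKM in AL livers (limma adjusted p = 0.441). The count of 3 was 1 without AL replicate 1, AL replicate 2 or CR replicate 1, and 0 without CR replicate 2.

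**Figure D2:**
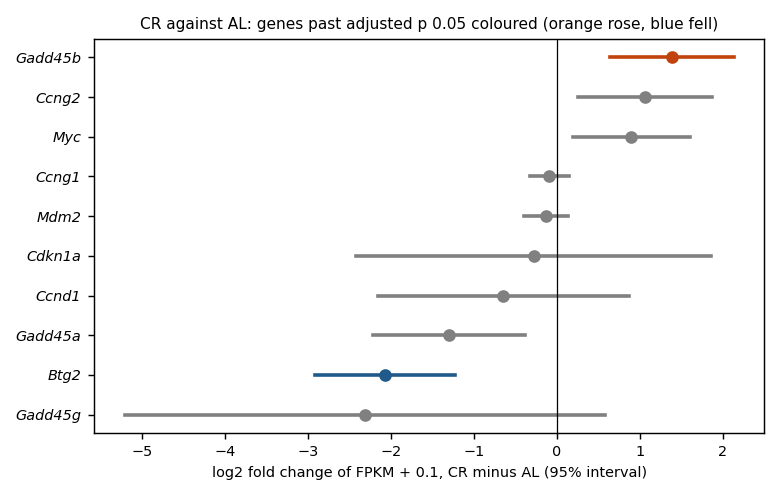
Log2 fold change of FPKM + 0.1, CR minus AL (horizontal axis), for each of the 10 genes from limma, with 95% intervals. Gadd45b (orange, 1.39) and Btg2 (blue, -2.08) passed an adjusted p of 0.05, the intervals of Ccng1 and Mdm2 are narrow around 0, and that of Gadd45g is the widest.

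Cyclin G1 and cyclin G2 differed in their behaviour. Ccng1 (chr11:40748552-40755311, minus strand) was among the steadiest of the 10 genes, at 10.1, 9.95, 8.61 and 8.56 FPKM in CR replicates 1 to 4, against 10.02, 10.1 and 9.57 FPKM in AL replicates 1 to 3. Its log2 fold change was -0.09, with a 95% interval from -0.32 to 0.14 (limma adjusted p = 0.562). Ccng2 (chr5:93267257-93276231, plus strand) was 2.28, 2.90, 3.89 and 3.91 FPKM in CR replicates 1 to 4, against 0.833, 1.48 and 2.49 FPKM in AL replicates 1 to 3. CR replicate 1 was below AL replicate 3, and the other CR livers were above all AL livers. The log2 fold change was 1.07, with a 95% interval from 0.26 to 1.87, and it did not pass (limma adjusted p = 0.0659). Without AL replicate 3 it was 1.43 (limma adjusted p = 0.0185). The log2 ratio of Ccng1 to Ccng2 averaged 1.52 ± 0.49 in CR livers and 2.68 ± 0.77 in AL livers (exact permutation p = 0.0857, adjusted p = 0.171). A single pair could not pass after adjustment even at the smallest possible p, so the test could not decide whether the cyclins differed.

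Of 18 further FoxO factors and FoxO targets of the liver, 3 rose, 1 fell and 14 did not pass, and the median was 0.19. Passing genes were 22.2% of those tested, close to the 21.5% of all genes tested. Bnip3, which promotes removal of mitochondria, averaged 117 ± 11.3 FPKM in CR livers and 43.7 ± 3.78 FPKM in AL livers (log2 fold change 1.42, SE 0.12, limma adjusted p = 0.000272). Bcl2l11, which codes for the cell death protein Bim, had a log2 fold change of 1.15 (limma adjusted p = 0.0192). Pdk4, which restrains pyruvate oxidation, was 2.31, 3.29, 3.96 and 8.56 FPKM in CR replicates 1 to 4, against 1.35, 1.58 and 1.52 FPKM in AL replicates 1 to 3 (limma adjusted p = 0.0398). The call of Pdk4 was lost in 9 of 18 alternative settings. Pck1, an enzyme of gluconeogenesis and the most abundant on the list, was 823, 825, 1769 and 1588 FPKM in CR replicates 1 to 4, against 638, 958 and 914 FPKM in AL replicates 1 to 3 (limma adjusted p = 0.294). The count of 4 became 6 without AL replicate 3 and 2 without AL replicate 2, CR replicate 2 or CR replicate 3.

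Ccnd1 (chr7:144929931-144939925, minus strand) was 7.57, 4.42, 1.02 and 1.72 FPKM in CR replicates 1 to 4, against 5.84, 5.83 and 2.55 FPKM in AL replicates 1 to 3. CR livers held both the highest and the lowest value, a 7.45-fold range, and replicates 1 and 2 lay far above replicates 3 and 4. The log2 fold change was -0.65, with a 95% interval from -2.16 to 0.87 (limma adjusted p = 0.520), and it was 0.38 without CR replicates 3 and 4. Single livers moved it to -0.19 without CR replicate 3 and to -1.11 without CR replicate 1. Ccnd1 overlaps Oraov1 on the opposite strand, at a mean of 1.51 FPKM. Endothelial markers, a cell type in which Ccnd1 can also be expressed, summed to 73.1, 65.5, 32.9 and 68.6 FPKM in CR replicates 1 to 4 and to between 75.9 and 79.1 FPKM in AL livers, with 9 of 9 detected, and their part was not tested.

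Of 15 further cyclins and cyclin-dependent kinases, 11 could be tested, of which 1 fell, none rose and 10 did not pass, with a median of -0.15. That is 9.09% of those tested, against 21.5% of all genes in either direction and 10.2% falling. At an unadjusted limma p under 0.05, 2 were higher and 2 lower, and limma-voom called 0 higher. The gene that fell was Ccnf, cyclin F, a ubiquitin ligase subunit that does not activate a kinase. It was 0.910, 1.83, 2.09 and 1.34 FPKM in CR replicates 1 to 4, against 6.94, 7.28 and 5.30 FPKM in AL replicates 1 to 3 (log2 fold change -2.05, SE 0.27, limma adjusted p = 0.00266). Ccnf passed in 17 of 17 alternative settings. Ccni, cyclin I, averaged 50.7 ± 3.45 FPKM in CR livers and 43.3 ± 4.85 FPKM in AL livers (limma adjusted p = 0.187), and Ccne2 and Cdk7 had adjusted p of 0.0703 and 0.0694. The mitotic genes Ccna2, Ccnb1, Ccnb2 and Cdk1 were too low to be tested, at a mean of at most 0.487 FPKM in either diet. The count was 2 without AL replicate 3.

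Of 20 genes of proliferation and DNA replication, 7 were too low to be tested, among them Mki67, at a mean of 0.103 FPKM in CR livers and 0.200 FPKM in AL livers. Of the 13 tested, 2 rose, 2 fell and 9 did not pass, with a median of -0.37. Passing genes were 30.8% of those tested, against 21.5% of all genes tested. At an unadjusted limma p under 0.05, 2 were higher and 6 lower, and limma-voom called 1 higher and 3 lower. Pcna, the sliding clamp of replication and repair, averaged 14.3 ± 0.665 FPKM in CR livers and 11.1 ± 0.800 FPKM in AL livers (log2 fold change 0.36, limma adjusted p = 0.0323). The helicase genes Mcm4 and Mcm5 differed by -0.63 and -1.34 on the log2 scale (limma adjusted p 0.0418 and 0.0385). These calls were lost in 12 of 18 alternative settings for Pcna, 12 of 17 for Mcm4 and 8 of 14 for Mcm5. The count of 4 was 0 without AL replicate 1 or CR replicate 2, 3 or 4, 1 without AL replicate 2, and 2 without AL replicate 3 or CR replicate 1.

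Myc (chr15:61985391-61990374, plus strand) was 2.002, 3.24, 2.02 and 1.18 FPKM in CR replicates 1 to 4, against 1.06, 0.867 and 1.16 FPKM in AL replicates 1 to 3. All CR livers were above all AL livers, but CR replicate 4 exceeded AL replicate 3 by only a small margin. The means were 2.11 ± 0.849 FPKM in CR livers and 1.03 ± 0.148 FPKM in AL livers (log2 fold change 0.90, 95% interval 0.19 to 1.60, limma adjusted p = 0.0733). Myc did not pass, but it passed without CR replicate 4 (limma adjusted p = 0.0233).

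Of 12 further genes of the Myc, Max and Mxd network, 10 could be tested, of which 1 rose, 3 fell and 6 did not pass, with a median of -0.37. Passing genes were 40.0% of those tested, against 21.5% of all genes tested. Mxi1, a repressor that competes with Myc for Max, averaged 7.10 ± 0.452 FPKM in CR livers and 3.49 ± 0.134 FPKM in AL livers (log2 fold change 1.0, SE 0.10, limma adjusted p = 0.000705). Mlxipl, the glucose sensor ChREBP, averaged 21.8 ± 3.15 FPKM in CR livers and 48.3 ± 1.64 FPKM in AL livers (log2 fold change -1.16, limma adjusted p = 0.00112). Mxi1 and Mlxipl passed in all 18 alternative settings. Mxd4, another repressor of the family, had a log2 fold change of -0.49 (limma adjusted p = 0.0240), lost in 8 of 18 settings. The count of 4 was 2 without AL replicate 2 or CR replicate 1, 2 or 3.

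Of 18 genes that Myc is known to drive, 2 rose, 3 fell and 13 did not pass, with a median of -0.33. Most are genes of ribosome biogenesis, the name used for the list below, but Cad and Odc1 code for metabolic enzymes. Passing genes were 27.8% of those tested, against 21.5% of all genes tested. The list summed to 238, 173 and 141 FPKM in AL replicates 1 to 3 and to between 154 and 193 FPKM in CR livers. AL replicate 1 was thus the highest of all livers and AL replicate 3 the lowest. Ncl, nucleolin, averaged 21.3 ± 1.63 FPKM in CR livers and 13.7 ± 0.613 FPKM in AL livers (log2 fold change 0.63, limma adjusted p = 0.00444). Npm1, nucleophosmin and the most abundant on the list, averaged 46.8 ± 7.99 FPKM in CR livers and 28.4 ± 3.22 FPKM in AL livers (log2 fold change 0.71, limma adjusted p = 0.0171). Cad, the first enzyme of pyrimidine synthesis, averaged 1.34 ± 0.284 FPKM in CR livers and 3.21 ± 0.395 FPKM in AL livers (log2 fold change -1.21, limma adjusted p = 0.00592). The genes that fell were the metabolic genes Cad and Odc1, and Nop16, whereas Ncl and Npm1 were the genes that rose. The count of 5 was 8 without AL replicate 3 and 2 without AL replicate 2.

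Mdm2 (chr10:117688875-117710758, minus strand), the ubiquitin ligase of p53, was 5.60, 5.01, 5.95 and 5.34 FPKM in CR replicates 1 to 4, against 5.30, 6.53 and 6.30 FPKM in AL replicates 1 to 3. The groups overlapped, and the log2 fold change was -0.14, with a 95% interval from -0.40 to 0.13 (limma adjusted p = 0.429). Mdm2 and Ccng1, both p53 targets, had the smallest spread within a diet of the 10 genes, whereas Cdkn1a, also a p53 target, had the second largest.

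Of 30 further p53 targets and regulators, 26 could be tested, of which 3 rose, 4 fell and 19 did not pass, with a median of 0.13. Passing genes were 26.9% of those tested, against 21.5% of all genes tested. Fas, a death receptor, averaged 6.03 ± 0.345 FPKM in CR livers and 10.5 ± 1.31 FPKM in AL livers (log2 fold change -0.78, SE 0.11, limma adjusted p = 0.00393). Gdf15, a stress-induced hormone, averaged 1.16 ± 0.368 FPKM in CR livers and 3.08 ± 0.343 FPKM in AL livers (log2 fold change -1.38, limma adjusted p = 0.00892). Dcxr, an enzyme of xylulose metabolism, averaged 75.3 ± 5.73 FPKM in CR livers and 48.0 ± 2.93 FPKM in AL livers (log2 fold change 0.65, limma adjusted p = 0.00510). Rps27l, the most abundant on the list, averaged 147 ± 9.91 FPKM in CR livers and 140 ± 5.08 FPKM in AL livers (limma adjusted p = 0.684). Fas, Gdf15 and Dcxr passed in every alternative setting that tested them. The count of 7 was 3 without AL replicate 2, and 4 without CR replicate 1 or 3.

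**Figure D3:**
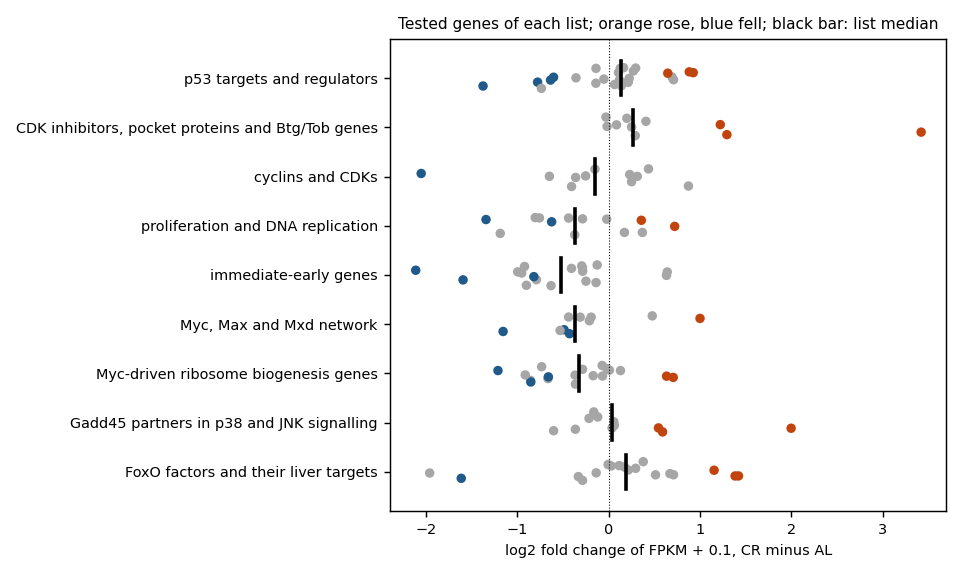
Log2 fold change of FPKM + 0.1, CR minus AL (horizontal axis), of the tested genes of 9 lists (rows), each point being a gene, in orange where it rose and in blue where it fell, with a black bar at the list median. Cdkn1c lies farthest to the right at 3.42, and Junb and Ccnf farthest to the left among called genes.

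Immediate-early genes are switched on within minutes of a growth signal. Of 20 such genes, 18 could be tested, of which 3 fell, none rose and 15 did not pass, and the median was -0.52. Passing genes, all of which fell, were 16.7% of those tested, against 21.5% of all genes in either direction and 10.2% falling. At an unadjusted limma p under 0.05, 1 was higher and 6 lower, and limma-voom called 0 higher and 4 lower. Junb, a subunit of the transcription factor AP-1, was 6.13, 4.54, 15.02 and 14.0 FPKM in CR replicates 1 to 4, against 55.2, 41.7 and 24.3 FPKM in AL replicates 1 to 3 (log2 fold change -2.11, SE 0.47, limma adjusted p = 0.0186). Fos, its partner, averaged 0.361 ± 0.197 FPKM in CR livers and 1.26 ± 0.445 FPKM in AL livers (log2 fold change -1.60, limma adjusted p = 0.0266). Zfp36, which destabilises mRNAs, averaged 14.7 ± 3.11 FPKM in CR livers and 25.9 ± 5.20 FPKM in AL livers (log2 fold change -0.82, limma adjusted p = 0.0214). The calls of Junb, Fos and Zfp36 were lost in 4 of 18, 7 of 17 and 5 of 18 alternative settings. The count of 3 was 0 without AL replicate 1 and 1 without CR replicate 1.

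Livers of the same diet differed most in Gadd45g, Cdkn1a and Ccnd1. The SD of log2(FPKM + 0.1) within a diet was 2.05 for Gadd45g, 1.49 for Cdkn1a and 1.06 for Ccnd1, against a median of 0.24 over all genes tested. These values were at or above those of 99.5%, 98.1% and 96.5% of the genes tested. For 8 of the 10 genes the SD was above the median, and for Ccng1 and Mdm2 it was 0.10 and 0.13. Spread from counting is part of the SD of low genes, but Gadd45g had 23 to 2170 reads per library. Gadd45g and Cdkn1a shared an order among livers. The average of AL replicates 1 and 2 was 15.6-fold above AL replicate 3 for Gadd45g and 9.03-fold for Cdkn1a. The average of CR replicates 3 and 4 was 5.18-fold above that of CR replicates 1 and 2 for Gadd45g and 5.90-fold for Cdkn1a. Btg2 had the same order with smaller ratios, 2.43-fold and 1.69-fold. Ccnd1 was 2.29-fold higher in AL replicates 1 and 2 than in AL replicate 3, like these genes, but 4.39-fold higher in CR replicates 1 and 2 than in CR replicates 3 and 4. The same livers also stood apart across genes with at least 20 reads in a pair. Chi-square per gene between 2 livers was 17.2 for AL replicates 1 and 2. Against AL replicate 3 it was 127 and 103. It was 18.45 for CR replicates 1 and 2, 32.8 for CR replicates 3 and 4, and 43.65 to 72.5 across these pairs. G6pc was 8.82, 7.49, 123 and 203 FPKM in CR replicates 1 to 4. In AL replicates 1 to 3 it was 165, 133 and 127 FPKM. No test was made of these patterns, because livers were grouped after their values were seen.

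**Figure D4:**
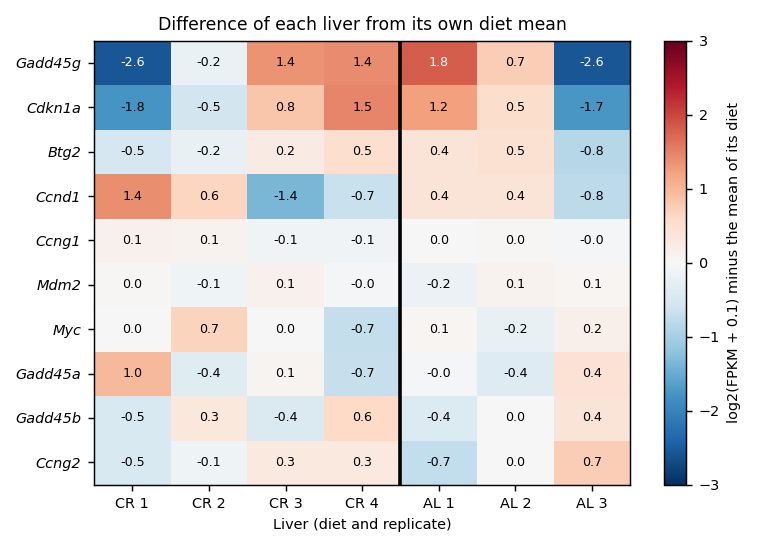
Log2(FPKM + 0.1) of each liver minus the mean of its own diet (colour and printed number) for the 10 genes (rows) in CR replicates 1 to 4 and AL replicates 1 to 3 (columns). Gadd45g and Cdkn1a are low in CR replicate 1 and AL replicate 3 and high in CR replicates 3 and 4 and AL replicate 1, and Ccng1 and Mdm2 stay near 0.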

How the data were processed

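Liver RNA of 4 CR and 3 AL mice was measured, with 1 library per mouse, and livers were assigned to diet and replicate by the sample labels. The authors deposited 1 table of FPKM for 54532 genes. Per the submitters' notes, reads were aligned to GRCm38 (also named mm10), and the tools listed are HISAT2 2.0.5, featureCounts 1.5.0-p3 and CASAVA 2.19. How FPKM was scaled and whether strand was used are not given in the sources used here. Reads were recovered by multiplying FPKM by gene length, which gave whole numbers of a fixed step per library (within 0.0002 reads). No libraries were duplicates (chi-square per gene at least 17.2 over genes with at least 20 reads in a pair).

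Because the table holds FPKM, the authors' count model (DESeq2) was not used. A gene was tested if it reached 0.5 FPKM in 3 or more of the 7 libraries. The test was limma 3.58.1 in R 4.3.3 (trend and robust, with statmod 1.5.0) on log2(FPKM + 0.1), after the procedure was checked on simulated data. Log2 ratios of paralogues were tested by exact permutation. The 10 genes, the gene lists and the tests were chosen with earlier results of these data known. From each list the 3 genes with the smallest adjusted p and the most abundant gene are named, all 10 genes always, and a few others after their values were seen. Alternatives covered the pseudocount, filter, scaling, variance model, limma-voom on recovered reads, replicate block and left-out libraries. Tf was not found. Of 100-base words in GENCODE M21 transcripts, Ccnd1 shares 19.6%, Gadd45a 12.3%, Cdkn1a 5.33% and the other 7 genes at most 0.0543% with other genes. Upstream sequences are from RefSeq (GRCm38.p6). Figures were drawn with matplotlib 3.10.9.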

Additional observations from a re-analysis of the deposited data

How the results depend on the processing

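Btg2 passed in 17 of 18 alternative settings and Gadd45b in 11 of 17, and neither changed sign. Among genes not called, Gadd45a passed in 4, Ccng2 and Myc in 2 each. Depth limits Cdkn1a, Gadd45a and Gadd45b most, with 10, 15 and 15 reads in their lowest libraries.

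With single libraries left out, 0 to 2 of the 10 genes rose and 1 to 2 fell, and over all genes 669 to 1514 rose and 540 to 1149 fell. Log2 fold changes then ran from -1.11 to -0.19 for Ccnd1, 0.69 to 1.43 for Ccng2, -1.16 to 0.33 for Cdkn1a, -1.62 to -1.08 for Gadd45a, 1.18 to 1.59 for Gadd45b, 0.67 to 1.13 for Myc and -0.17 to 0.24 for Tob1, and the difference of the Gadd45a to Gadd45g ratio from -0.17 to 2.51. List calls then ran from 3 to 9 (p53), 2 to 3 (kinase inhibitors), 1 to 2 (cyclins), 0 to 2 (proliferation), 0 to 4 (immediate-early), 2 to 4 (Myc network), 2 to 8 (ribosome biogenesis), 0 to 3 (p38 and JNK) and 2 to 6 (FoxO).

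The replicate numbers do not pair the mice. Deviations of same-numbered livers from their diet means correlated at 0.031, -0.044 and -0.057 across genes. With the replicate block 482 genes rose and 508 fell, and of the 10 genes 0 rose and 1 fell. Gadd45b had a log2 fold change of 1.19 (limma adjusted p = 0.0699), Btg2 -2.24 (limma adjusted p = 0.0476) and Tob1 -0.0686. List calls were 3 (p53), 0 (proliferation, immediate-early, p38 and JNK), 2 (Myc network, FoxO) and 1 (ribosome biogenesis).

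With a pseudocount of 1, 2 of the 10 genes fell, Gadd45a at -0.75 being the addition (limma adjusted p = 0.0466), and 2 FoxO genes passed. On recovered reads with limma-voom 2 rose and 2 fell, with Ccng2 at 1.13 (adjusted p = 0.0436) and Gadd45a at -1.39 (adjusted p = 0.0378) past the threshold. With at least 1 FPKM in every library, which drops Gadd45b and 5 others of the 10, 0 rose, and list calls were 4 (p53), 1 (kinase inhibitors, proliferation) and 0 (cyclins). With no filter 0 proliferation and 2 FoxO genes passed, and without trend and robust variance 2 FoxO genes.

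Without CR replicates 1 and 2, 627 genes rose and 642 fell, and of the 10 genes 0 rose. Gadd45b was at 1.47, Btg2 at -1.71, Gadd45a at -1.60 (limma adjusted p = 0.0460) and Cdkn1a at 0.88, and the Gadd45a to Gadd45g difference was -0.68. List calls were 3 (p53, ribosome biogenesis), 1 (kinase inhibitors), 2 (Myc network) and 0 (proliferation, p38 and JNK). Without CR replicates 3 and 4, 782 genes rose. Gadd45b was at 1.31, Myc at 1.24 (limma adjusted p = 0.0364), Ccnd1 at 0.38, Ccng1 at 0.021, Rps27l at -0.0015 and Tob1 at -0.29, and Cdkn1a could not be tested. List calls were 4 (p53), 0 (kinase inhibitors), 2 (cyclins, ribosome biogenesis), 1 (proliferation, p38 and JNK) and 5 (immediate-early). Where a setting tests fewer genes or libraries its construction bears on the count, and otherwise the cause was not tested.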

Other observations

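The order of livers shared by Gadd45g and Cdkn1a was looked for over all 12699 genes tested. AL replicates 1 and 2 were both at least 2-fold above AL replicate 3, and CR replicates 3 and 4 both at least 2-fold above CR replicates 1 and 2, for 19 genes detected in every liver (0.150%), and the opposite order held for 5 genes. Gadd45g and Cdkn1a, from which the order was taken, are themselves among the 19. The most abundant of the 19 was Got1, the cytosolic aspartate aminotransferase, at 63.1, 53.9, 242 and 204 FPKM in CR replicates 1 to 4 and 89.5, 77.4 and 35.4 FPKM in AL replicates 1 to 3. Slc25a51, the mitochondrial carrier of NAD, was 9.70, 8.61, 23.3 and 25.7 FPKM in CR replicates 1 to 4 and 39.0, 36.1 and 16.9 FPKM in AL replicates 1 to 3. Tnfrsf12a, the receptor of the cytokine TWEAK, was 2.48, 2.34, 8.10 and 7.39 FPKM in CR replicates 1 to 4 and 8.14, 9.66 and 3.98 FPKM in AL replicates 1 to 3. Of the 19 genes, 1 passed the test of diet, Ppp1r3g, a subunit that directs a phosphatase to glycogen. The share of 0.150% holds for the 2-fold threshold, and the same livers also stood apart over genes at large, as given above. The pattern was chosen after the values were seen, and no test was made of it.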
